A study of Mus musculus with 12 samples.

Results

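The genes described here carry symbols of the voltage-gated ion channel families and their relatives. They are all probes whose symbol starts with Kcn or Cacn (1 calcium channel gene was left out), or names a numbered Scn sodium channel subunit or a ClC chloride channel or transporter. The array holds 302 such probes for 145 genes, out of 46359 probes with a symbol for 27306 genes. Of these, 104 probes for 66 genes were detected, meaning that in 1 condition or more none of the 3 arrays failed the scanner's test for signal well above local background. The family name fits only part of them: the inward rectifiers (Kcnj), the leak channels (Kcnk), the small-conductance channels (Kcnn), the ClC chloride-proton exchangers such as Clcn5, the auxiliary subunits and the noncoding transcript Kcnq1ot1 are not voltage-gated pores.

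The study measured RNA in C2C12 cells, a myoblast line from C3H mice that fuses into myotubes when serum is lowered, to ask what silencing the transcription factor Bach1 changes before and during differentiation. Cells were transfected with a control siRNA (siControl) or with an siRNA against Bach1 (siBach1), and harvested at confluence (day 0) or after 2 days in DMEM with 2% horse serum (day 2). The 4 conditions are siControl at day 0, siControl at day 2, siBach1 at day 0 and siBach1 at day 2, with 3 arrays each, so 12 one-colour arrays in all, and 26924 to 33319 probes were well above background per array. The methods describe the array work as done in triplicate, but neither they nor the labels say that the 3 arrays of a condition came from separate cultures, so the p-values measure the spread between these arrays, whose number limits the precision. A single siRNA sequence against Bach1 was used. Replicates 1 and 2 lay on 1 slide and replicate 3 on the other, and each condition kept its own column of the slides, so that array position and condition cannot be told apart.

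Sodium channels open first and carry the upstroke of the muscle action potential, voltage-gated potassium channels and ClC chloride conductance end it and set the resting potential, and voltage-gated calcium channels couple it to contraction. Myoblasts express few of these channels, and as they differentiate the membrane hyperpolarises, chiefly through inward rectifier potassium channels, before the cells fuse. Adult skeletal muscle uses the sodium channel Scn4a.

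All values are log2 signals relative to the 75th percentile of the same array, so 0 is the level of that percentile and differences are log2 fold changes. A probe is said to have risen or fallen when its adjusted p (limma, Benjamini-Hochberg over all 29664 probes tested) was under 0.05, and a call of 2-fold also asks for a fold change of at least 2. A gene stands with its brightest detected probe. Where no array of a condition was well above background, the fold is a lower bound, computed with the dim arrays raised to the weakest signal that was still well above background on the same array.

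Bach1 itself, the silenced gene, read 1.73, 1.55 and 1.78 in siControl at day 0 and 0.18, -0.22 and -0.22 in siBach1. At day 2 it read 2.56, 2.55 and 2.58 in siControl and 0.57, 0.56 and 0.65 in siBach1. The highest siBach1 array lay under the lowest siControl array on either day. Silencing lowered it by a log2 change of -1.77 at day 0 (3.42-fold, adjusted p = 1.2e-05) and -1.97 at day 2 (3.91-fold, adjusted p = 1.38e-05).

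The cells carried muscle markers at both days. Of the 10 differentiated muscle genes looked for, 9 were on the array, and all 9 were detected on 12 arrays and rose from day 0 to day 2 in both siControl (median 4.85) and siBach1 (median 4.38). Their summed signal, as a multiple of the 75th percentile, was 2561, 2581 and 2382 in siControl at day 2 but 1853, 1887 and 1574 in siBach1 at day 2, with the troponin gene Tnnc2 the brightest. At day 0 the sums were 105, 73.4 and 72.3 in siControl and 97.7, 71.2 and 72.6 in siBach1. At day 2, 4 of the 9 were lower with siBach1: Myog, a driver of differentiation (-0.98), the myosin gene Myh8 (-1.01), and the troponin genes Tnnt1 (-0.54) and Tnnc2 (-0.58). The lower marker signal in siBach1 at day 2 stands beside every channel difference at that day given below. Its part in them was not tested, and fewer differentiated cells and less RNA per cell cannot be told apart.

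Markers of other cell types were present to differing degrees. Of 8 myoblast genes 7 were detected, with Cdh15 the brightest. Of 8 neuronal genes 6 were detected, Stmn2 brightest, while the defining genes Syt1 and Rbfox3 were on 0 arrays. Of 6 cardiac genes 5 were detected, Myl4 brightest and Myl7 on 0 arrays. The adipocyte list had 4 of 6 detected (Adipoq on 0 arrays), the immune list 4 of 5 (Adgre1 on 0 arrays), the glial list 2 of 6, and the endothelial list 1 of 4 (Cdh5, Kdr and Tek on 0 arrays). At day 2 the summed signals moved in both directions with silencing. The cardiac genes summed to 478, 466 and 412 in siControl and 368, 370 and 315 in siBach1, and the myoblast genes to 208, 214 and 227 and then 182, 179 and 201. The cardiac sum was mostly Myl4, which rose by 6.16 with the day in siControl and did not pass for silencing at day 2 (-0.37, adjusted p = 0.297). Tnni3 gave 1.20 (adjusted p = 0.161) at day 2, and the median over the cardiac list was -0.08. The neuronal genes went from 54.3, 57.4 and 59.8 in siControl to 77.6, 87.9 and 78.4 in siBach1, with Stmn2 higher by 0.99 (adjusted p = 0.00176) but Gap43 lower by 1.07 (adjusted p = 0.0318) and a median of -0.02 over the list. The adipocyte genes went from 6.07, 7.06 and 5.78 to 10.5, 11.5 and 13.0, with Lpl higher by 1.15 (adjusted p = 0.000201). No other detected gene of that list passed: Pparg gave 0.43, Plin1 -0.29 and Fabp4 -1.30, with a median of 0.07 over the list. Of the myoblast and cardiac genes, Myod1 (-0.48, adjusted p = 0.0364) and Myh6 (-0.86, adjusted p = 0.0461) passed. At day 0 silencing lowered the neuronal Nefl (-0.99, adjusted p = 0.0258), Gap43 (-1.04, adjusted p = 0.0274) and Syn1 (-0.90, adjusted p = 0.00861), the cardiac Nppb (-1.27, adjusted p = 0.00114), the myoblast gene Msc (-1.25, adjusted p = 0.00537) and the immune Cd68 (-0.48, adjusted p = 0.0174), and raised the myoblast genes Cdh15 (0.45, adjusted p = 0.00514) and Ncam1 (0.30, adjusted p = 0.0302). These changes too stand beside the channel differences of their day.

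Detection split the channel families unevenly. ClC genes were detected for 8 of 9 members, calcium channel beta subunits for 3 of 4, sodium channel pores and calcium channel pores for 5 of 9 each, and voltage-gated potassium channel pores for 15 of 40. Inward rectifiers were detected for 3 of 15 and leak channels for 6 of 14. By probe, 34.4% of the 302 passed, against 52.4% of all probes on the array, and 128 member probes were well above background on 0 arrays. Several genes known from muscle were among the 79 undetected genes: Clcn1, the resting chloride conductance of adult fibres (2 probes, 0 arrays), the calcium channel pores Cacna1c (0 arrays) and Cacna1g (1 array at most), the potassium channel genes Kcna5 and Kcne3 (0 arrays) and Kcnc4 (1 array at most), and the sodium channel beta subunit Scn4b (5 arrays at most). Just outside the limit were 17 probes with 2 of 3 arrays at most. Of the 104 detected probes, 71 were well above background on all 12 arrays, 11 entered through both day 2 conditions only, 1 through both day 0 conditions only, and 11 through a single condition (6 of them siControl at day 2, 3 siControl at day 0, 2 siBach1 at day 2). Since those had to differ, the counts of member probes below are also given over the 71, beside all 24819 probes seen on 12 arrays.

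**Figure D1:**
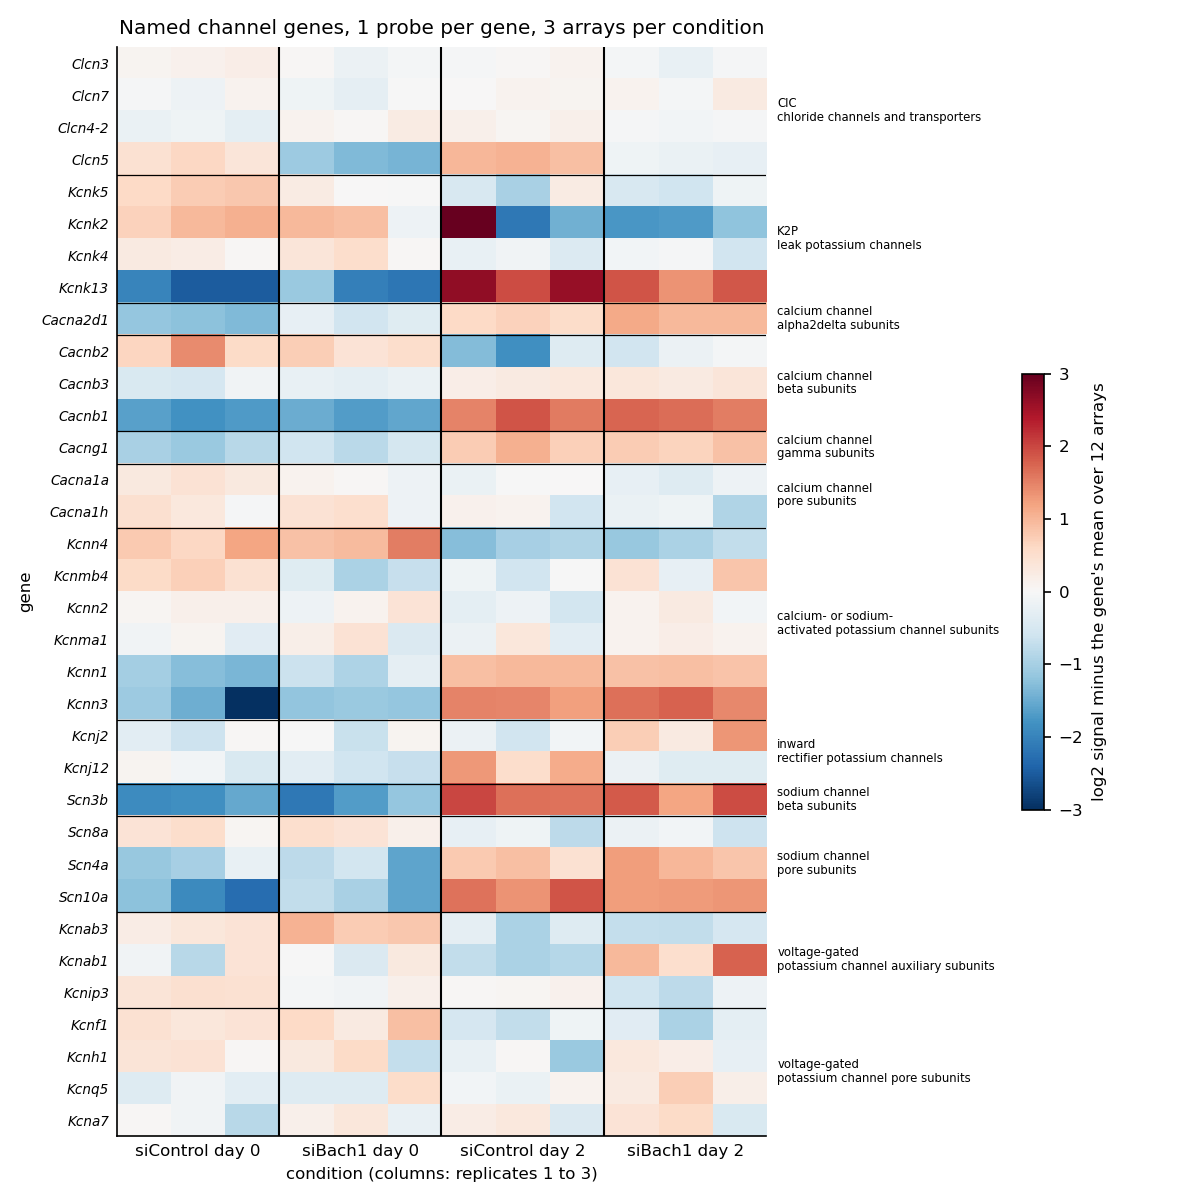
Log2 signal of 34 detected channel genes, 1 probe per gene, on each of the 12 arrays (columns, 3 per condition), shown as the difference from the gene's mean over all arrays (colour scale from -3 to 3) and grouped by role. Kcnk13, Scn3b, Cacnb1 and Kcnn3 turn from blue at day 0 to red at day 2 in both siControl and siBach1, whereas Kcnn4 turns from red to blue.

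The promoter windows of a few channel genes that changed hold letters recognised by MyoD family factors or by Bach1, and those shown were picked because they hold them. Windows of other genes that changed, among them Cacna2d1, Kcnmb4, Kcnj12, Kcnk13 and Cacnb1, held neither motif. RefSeq windows (GRCm38.p6, 250 bases before to 50 after a start) were found for 48 of the 66 genes, 70 windows in all, each searched on both strands. The E-box CAGCTG, the letters bound by the MyoD family, was in 17 of the 70 windows (24.3%), in 11 genes, against 16.3% of all 32851 windows. The element TGACNNNGC, the letters that Bach1 and Nrf2 recognise with small Maf proteins, was in 7 windows (10.0%), in 6 genes, against 12.4% of all. The stretches below are from the windows of Kcnn1, Kcnj2, Kcnab1 and Clcn5, in the direction of transcription, with the motif named in capitals. Stretches of Kcnn1 from 1 start overlap, so that an E-box and a Bach1 element lie side by side.
Kcnn1, E-box 244 bases before the start, chr8:70863467-70863508, minus strand: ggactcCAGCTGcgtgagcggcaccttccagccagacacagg
Kcnn1, E-box 124 bases before the start, chr8:70863347-70863412, minus strand: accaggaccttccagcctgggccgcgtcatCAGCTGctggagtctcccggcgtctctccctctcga
Kcnn1, E-box 31 bases before the start, chr8:70863259-70863319, minus strand: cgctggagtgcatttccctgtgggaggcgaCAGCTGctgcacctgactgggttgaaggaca
Kcnn1, Bach1 element (other strand) 134 bases before the same start, chr8:70863354-70863422, minus strand: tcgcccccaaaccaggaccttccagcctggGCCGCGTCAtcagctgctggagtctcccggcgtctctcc
Kcnn1, E-box 142 bases before another start, chr8:70857115-70857180, minus strand: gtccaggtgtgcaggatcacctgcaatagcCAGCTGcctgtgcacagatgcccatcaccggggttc
Kcnn1, Bach1 element (other strand) 57 bases before that start, chr8:70857027-70857095, minus strand: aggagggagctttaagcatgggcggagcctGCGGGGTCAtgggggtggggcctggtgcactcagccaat
Kcnj2, E-box 206 bases before the start, chr11:111065928-111065993, plus strand: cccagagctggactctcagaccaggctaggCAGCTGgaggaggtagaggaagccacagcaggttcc
Kcnab1, Bach1 element 217 bases before the start, chr3:65108767-65108835, plus strand: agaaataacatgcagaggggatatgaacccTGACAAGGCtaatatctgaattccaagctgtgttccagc
Clcn5, E-box 42 bases before 1 start, chrX:7319365-7319430, minus strand: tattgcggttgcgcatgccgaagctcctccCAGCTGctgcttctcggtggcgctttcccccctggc
Clcn5, Bach1 element 154 bases before another start, chrX:7188830-7188898, minus strand: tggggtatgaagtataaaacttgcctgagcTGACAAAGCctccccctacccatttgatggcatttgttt
The E-box was also in windows of Kcnk2, Cacnb2, Cacna1b, Kcnip3, Kcns1, Kcnc2, Kcnip1 and Kcnk4, and the Bach1 element in those of Kcnq1ot1, Clcn3 and Scn8a. A match is a description of the letters, not of a site in use. Windows for the other 18 detected genes were not used here.

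Differentiation of siControl cells, the comparison of day 2 with day 0, moved genes in each of the channel families but not the noncoding transcript. The leak channel Kcnk13, the sodium channel genes Scn10a and Scn4a with their beta subunit Scn3b, the calcium channel subunits Cacnb1, Cacna2d1 and Cacng1 and the calcium-activated Kcnn1 and Kcnn3 rose. The calcium-activated potassium channel Kcnn4, the calcium channel subunit Cacnb2 and the leak channel Kcnk5 fell. In siControl 40 of 104 member probes rose and 15 fell, against 24.6% and 28.8% of all probes tested. By 2-fold or more 26 rose and 5 fell, against 10.5% and 9.46% of all. Over the 71 probes seen on all 12 arrays, 25 rose and 12 fell (35.2% and 16.9%, against 23.5% and 31.6% of all such probes), and by 2-fold 12 rose and 4 fell (16.9% and 5.63%, against 7.96% and 9.25%). The median change of member probes was 0.34, against 0.00 for all probes.

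In siBach1 cells the same comparison, on separate arrays, gave 34 member probes that rose and 10 that fell, against 23.8% and 32.2% of all probes tested. By 2-fold or more 27 rose and 6 fell, against 10.9% and 9.59% of all. Over the 71 probes, 21 rose and 9 fell (29.6% and 12.7%, against 21.7% and 36.1% of all such probes), and by 2-fold 15 rose and 5 fell (21.1% and 7.04%, against 7.63% and 9.78%). The median change was 0.25 for member probes and -0.07 for all probes. By gene, 23 of 66 rose and 11 fell in siControl, and 22 rose and 6 fell in siBach1. Both medians of the members stayed positive under each scaling tried, but became smaller in some. With normexp they were 0.15 in siControl and 0.07 in siBach1, and with quantile normalization 0.25 and 0.09. Among probes seen on all 12 arrays the median of member probes was smaller, 0.08 in siBach1 and 0.28 in siControl. The median of all such probes lay at -0.12 in siBach1 and -0.04 in siControl.

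Among the sodium channel pores, Scn10a and Scn4a rose in siControl. Scn10a, a channel known from sensory neurons, read -3.01, -3.69 and -4.06 at day 0 and -0.15, -0.43 and 0.11 at day 2. Scn4a, the channel of adult skeletal muscle, read -2.87, -2.71 and -1.94 at day 0 and -0.93, -0.81 and -1.26 at day 2. In both genes all day 2 arrays were above all day 0 arrays, with changes of 3.43 for Scn10a (adjusted p = 3.01e-06) and 1.51 for Scn4a (adjusted p = 0.00134). In siBach1 they changed by 2.38 and 2.00. A second Scn10a probe read -3.16, -3.31 and -4.82 at day 0 and -2.31, -2.58 and -3.26 at day 2 in siControl, which overlap (1.05, adjusted p = 0.208).

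Scn8a, the channel of nodes of Ranvier, fell by 0.71 in siControl (adjusted p = 0.0137), a call that ended without siControl day 0 replicate 2 (adjusted p = 0.0541, and 3.97e-05 to 0.083 over all its alternatives). The auxiliary subunit Scn3b passed the background test on 0 of 6 arrays at day 0 and 6 of 6 at day 2, at least 3.26-fold higher in siControl and at least 2.54-fold in siBach1. The brain channel Scn1a did not pass (0.20, adjusted p = 0.253).

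Auxiliary subunits made up the calcium channel rises. Cacnb1, the beta subunit of the channel that triggers contraction in skeletal muscle, read -0.61, -0.78 and -0.67 at day 0 and 2.51, 2.92 and 2.60 at day 2 in siControl. In siBach1 it read -0.47, -0.64 and -0.54 and then 2.77, 2.70 and 2.57. The days were far apart and the silencing conditions overlapped at each day, with day changes of 3.36 (10.3-fold) and 3.23. Cacng1, the gamma subunit of the same channel complex, rose by 1.82 and 1.41, and Cacna2d1, its alpha2delta subunit, by 1.86 and 1.43. Cacnb3 rose by 0.62 and 0.56. Cacnb2, the beta subunit of heart, went the other way: it stood clear of background on 3 of 3 siControl arrays at day 0 (-3.05, -2.27 and -3.12) and 0 of 3 at day 2, at least 3.04-fold lower (adjusted p = 0.000505). In siBach1 it stayed well above background on 3 of 3 arrays at day 2 (-0.84 from day 0, adjusted p = 0.0589), but the difference of its silencing effects did not pass (1.20, adjusted p = 0.182). Of the 5 calcium channel pores, Cacna1a of the neuronal P/Q type fell in siControl (-0.41, adjusted p = 0.00584) and the others did not pass, among them the T-type gene Cacna1h (-0.36, adjusted p = 0.292, within 0.00354 to 0.707). Another probe of Cacna1b rose (1.42, adjusted p = 0.00305) where its brightest probe gave -0.01.

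Among voltage-gated potassium channel pores, Kcnc2, a fast delayed rectifier, rose 1.83-fold in siControl and 2.83-fold in siBach1. Kcnd1 (A-type) and Kcnh6 (Erg type) rose in siControl by 0.67 and 0.80, and gave 0.44 and 0.47 in siBach1, where neither passed. Kcnf1, a silent subunit, fell by 0.87 in siControl and 1.12 in siBach1. Kcnh1, known to act early in human myoblast differentiation, gave -0.73 (adjusted p = 0.116, within 0.00455 to 0.374), the muscle channel Kcna7 0.34 (adjusted p = 0.413, within 0.0216 to 0.871) and Kcnq5 0.21 (adjusted p = 0.506). Among the cytoplasmic helpers, Kcnab3 fell by 0.87 in siControl and 1.53 in siBach1. Kcnip3, a calcium-binding partner of A-type channels, fell by 0.37 in siControl, a call that ended without any 1 of the 6 siControl arrays (adjusted p 0.0729 to 0.113, and 0.00052 to 0.133 over all alternatives).

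The calcium-activated potassium channels split. Kcnn4, the intermediate-conductance channel of proliferating cells, read 4.80, 4.65 and 5.22 at day 0 and 2.75, 3.04 and 3.11 at day 2 in siControl, with no overlap. It fell by 1.92 in siControl (3.79-fold) and 2.06 in siBach1, and its 3 probes gave -1.92 to -2.12 in siControl. The small-conductance channels Kcnn3 and Kcnn1, which shape the afterhyperpolarisation, rose. Kcnn3 read -3.42, -3.80 and -5.39 at day 0 and -0.83, -0.87 and -1.10 at day 2 in siControl, a change of 3.27 (2.78 in siBach1), and its other probe was at least 3.45-fold and 3.64-fold higher. Kcnn1 rose 4.48-fold and 2.83-fold on its brightest probe, but not every detected probe of Kcnn1 passed in siControl or in siBach1. Kcnn2 fell by 0.46 in siControl, but not without siControl day 0 replicate 2 (adjusted p = 0.074) or 3 (0.0711), or day 2 replicate 1 (0.0552) or 3 (0.102), within 0.00303 to 0.102 over its alternatives. Kcnma1, the pore of the large-conductance channel, stood at 0.07 (adjusted p = 0.817). Its beta subunit Kcnmb4 fell by 0.83 in siControl, but not without replicate 2 of siControl at day 0 (adjusted p = 0.0656) or day 2 (0.0815), within 0.00662 to 0.0815 over its alternatives.

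The inward rectifiers and leak channels gave single risers. Kcnj12, which with Kcnj2 carries the classical inward rectifier current of muscle, rose by 1.13 in siControl (adjusted p = 0.000875) and changed by 0.24 in siBach1 (adjusted p = 0.364). Kcnj2 gave 0.03 in siControl (adjusted p = 0.94) and rose by 0.98 in siBach1 (adjusted p = 0.0145), but not without siBach1 day 0 replicate 2 (0.0597) or day 2 replicate 3 (0.0544), within 0.000119 to 0.11 over its alternatives. Kcnk13, a leak channel inhibited by halothane, was on 0 of 6 arrays at day 0 and 6 of 6 at day 2, at least 8.85-fold higher in siControl and 4.50-fold in siBach1. Its values at day 2 were -1.25, -1.95 and -1.29 in siControl and -2.02, -2.56 and -2.04 in siBach1. The acid-sensitive Kcnk5 fell by 1.12 in siControl (adjusted p = 0.00334). Kcnk4 fell by 0.43, a call that ended without any 1 of the 6 siControl arrays (adjusted p 0.0528 to 0.145, and 0.00138 to 0.145 over all alternatives). The mechanically gated Kcnk2 had 1 array far from the rest, -0.36, -6.31 and -5.59 in siControl at day 2, and passed in none of the comparisons in limma at an adjusted or an unadjusted p of 0.05. Without that array 0 arrays of the condition stood well above background, so no fold is given, and the fall in siControl passed (adjusted p = 0.000205, and up to 0.961 over its alternatives).

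Among the ClC genes, Clcn5, an endosomal chloride-proton exchanger, rose by 0.50 in siControl and 1.08 in siBach1, and Clcn4-2, its close relative, by 0.32 in siControl (-0.19 in siBach1, adjusted p = 0.0738). Not every detected probe of Clcn5 or of Clcn4-2 passed in siControl. The endosomal Clcn3 (-0.10, adjusted p = 0.347) and the lysosomal Clcn7 (0.10, adjusted p = 0.462) did not pass. Kcnq1ot1, the imprinted antisense RNA, gave 0.24 (adjusted p = 0.475), and none of its 4 probes passed in limma, at an adjusted or an unadjusted p of 0.05, in siControl.

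With background correction by normexp, the changes of the dimmest probes in siControl became smaller while still passing: to 1.65 for Kcnk13, 0.70 for Scn3b, 2.13 for Scn10a, 1.505 for Kcnn3, 0.95 for Scn4a, 0.73 for Kcnj12, -0.68 for Cacnb2, -0.52 for Kcnf1 and -0.20 for Kcnn2. Kcnk5 did not pass in the methods' t-test (adjusted p = 0.0679, with 0.000124 to 0.0679 over its alternatives).

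**Figure D2:**
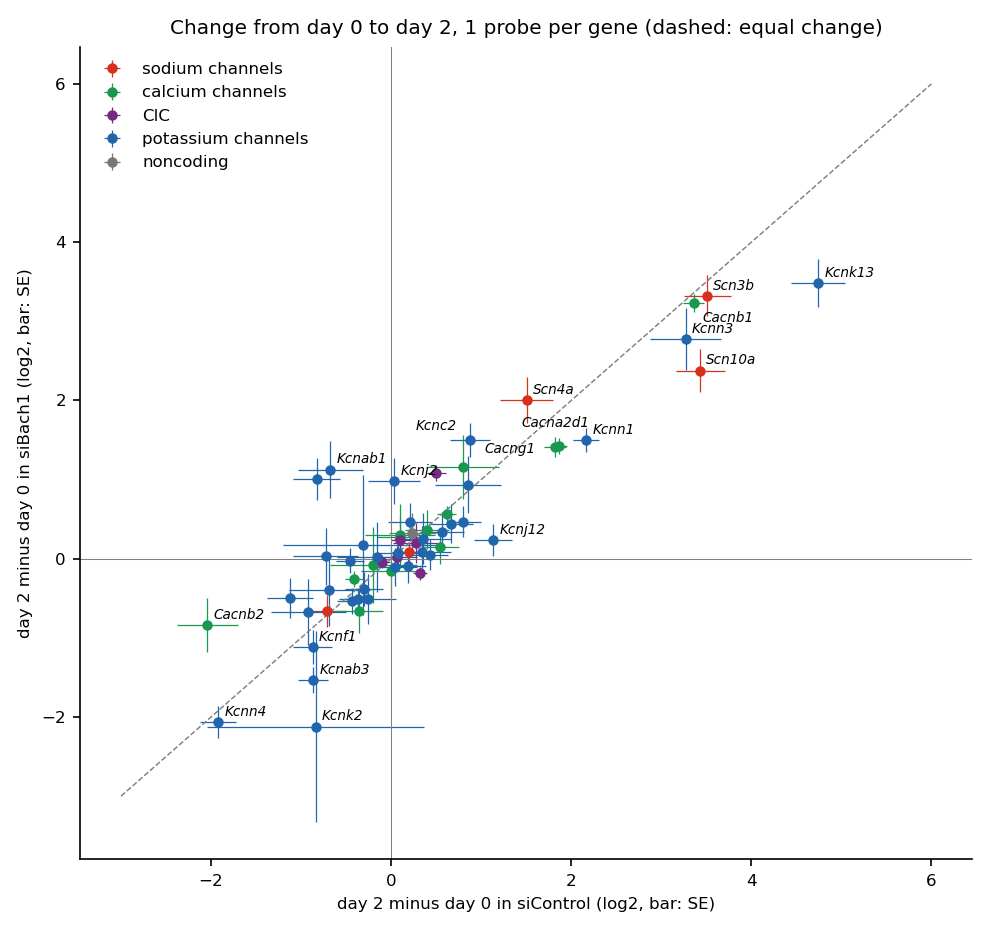
Change from day 0 to day 2 (log2) of 60 detected genes, 1 probe per gene, in siControl (horizontal) against siBach1 (vertical), with standard errors as bars, colours for the channel family and a dashed line of equal change. Scn3b and Cacnb1 lie near the line, while Kcnj12 lies at 1.13 in siControl and 0.24 in siBach1.

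Silencing of Bach1 at day 0, before differentiation was induced, lowered Clcn5 and the potassium channel subunit Kcnmb4 and raised the calcium channel subunit Cacna2d1. Of 104 member probes 9 were higher and 4 lower in siBach1, against 8.77% and 8.33% of all probes tested. By 2-fold or more 0 were higher and 2 lower, against 0.809% and 1.98% of all. In limma 2 were higher by 2-fold at an unadjusted p under 0.05, and with the methods' t-test 1 unadjusted and 0 adjusted. Over the 71 probes seen on all arrays the counts were the same 9 and 4 (12.7% and 5.63%, against 9.67% and 8.82% of all such probes), and by 2-fold 0 and 2 (0% and 2.82%, against 0.568% and 1.68%). By gene 5 of 66 were higher and 3 lower, and the median change was 0.11, against 0.09 for all probes. Leaving out siControl day 0 replicate 1 brought the 2-fold counts to 2 higher and 2 lower.

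Clcn5 had the largest change at day 0. Its brightest probe read 3.43, 3.61 and 3.33 in siControl and 1.88, 1.65 and 1.57 in siBach1, and at day 2 it read 3.98, 4.02 and 3.88 in siControl and 2.84, 2.79 and 2.72 in siBach1. At each day all siBach1 arrays were more than 1 log2 unit under all siControl arrays. The effect was -1.76 at day 0 (3.38-fold, 95% interval -1.99 to -1.53, adjusted p = 7.95e-06; -1.76 within each slide) and -1.18 at day 2 (2.26-fold, adjusted p = 0.000171; -1.18 and -1.16 within the slides). A second probe did not follow it: it read 1.73, 1.81 and 1.62 in siControl and 2.11, 1.93 and 1.96 in siBach1 at day 0. At day 2 that probe read 2.22, 2.07 and 2.27 in siControl and 1.90, 1.80 and 2.01 in siBach1. Its effects of 0.28 (adjusted p = 0.0696) and -0.28 (adjusted p = 0.0837) passed at neither day. The third, dim probe gave 0.32 and 0.19, so the drop was seen on 1 of 3 probes.

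Cacna2d1 was higher on all but 1 of its probes. The brightest read 1.47, 1.41 and 1.31 in siControl and 2.39, 2.07 and 2.27 in siBach1 at day 0, and 3.23, 3.34 and 3.20 against 3.78, 3.61 and 3.62 at day 2. The siBach1 arrays were above the siControl arrays at both days. The effect was 0.85 at day 0 (1.80-fold, adjusted p = 0.000326; 0.79 within slide 1 and 0.97 within slide 2) and 0.42 at day 2 (adjusted p = 0.0234). The day 2 call ended without siBach1 replicate 1 (adjusted p = 0.0921) or siControl replicate 1 (0.0716) or 3 (0.0699) of that day, within 0.00376 to 0.113 over its alternatives. At day 0, 5 of 6 probes passed, with effects of 0.37 to 0.90, and at day 2, 3 of 6 did. The sixth probe, A_55_P2738122, gave 0.09 and 0.15 and also did not follow the rise with the day (-0.27, adjusted p = 0.23).

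Kcnmb4 was lower at day 0, with -1.35, -1.22 and -1.49 in siControl and -2.31, -2.89 and -2.64 in siBach1, and no overlap. The effect was -1.26 (2.39-fold, adjusted p = 0.00859), or -0.83 with normexp, and the second probe gave -0.96 (adjusted p = 0.0613). Kcnn1 was higher by 0.60 (adjusted p = 0.0195), but not without siControl day 0 replicate 2 (adjusted p = 0.068) or 3 (0.0653), within 0.00691 to 0.172 over its alternatives. Clcn4-2 was higher by 0.33 (adjusted p = 0.0193), but not without siBach1 day 0 replicate 3 (0.0627) or siControl day 0 replicate 1 (0.0573) or 3 (0.0647), within 0.0107 to 0.119. Not every detected probe of Kcnn1, Clcn4-2 or Cacna1a passed at day 0. Kcnab3 (0.54, adjusted p = 0.0486) and Cacna1a (-0.34, adjusted p = 0.0453) did not pass without any 1 of the 6 day 0 arrays, with adjusted p of 0.0709 to 0.145 and 0.0519 to 0.152. Over all their alternatives the adjusted p ran from 0.00561 to 0.154 and from 0.0192 to 0.185.

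At day 2 silencing lowered Clcn5 and Kcnj12 and raised Kcnab1 and Kcnj2, each by 2-fold or more. Of 104 member probes 5 were higher and 7 lower, against 5.75% and 6.26% of all probes tested. By 2-fold or more 2 were higher and 5 lower, against 1.52% and 0.651% of all. With normexp, and with the methods' t-test at adjusted p, 0 were higher and 3 lower by 2-fold. Over the 71 probes 5 were higher and 5 lower (7.04% each, against 5.45% and 6.93% of all such probes), and by 2-fold 2 and 3 (2.82% and 4.23%, against 0.838% and 0.443%). By gene 3 of 66 were higher and 6 lower, and the median was -0.03, against -0.01 for all probes. The day 0 and day 2 comparisons use different arrays, but each shares its arrays with the day comparisons above.

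The inward rectifier genes moved apart at day 2. Kcnj12 read -0.89, -1.66 and -1.07 in siControl and -2.36, -2.56 and -2.54 in siBach1, where all siBach1 arrays were under all siControl arrays. It was lower by a log2 change of -1.28 (2.42-fold, adjusted p = 0.00399; -1.18 and -1.47 within the slides), with 0.0772 in the methods' t-test, within 0.00154 to 0.0772. Its dim second probe gave -1.44 (adjusted p = 0.0647). Kcnj2 read -0.94, -1.34 and -0.85 in siControl and -0.03, -0.50 and 0.56 in siBach1, with no overlap. It was higher by 1.05 (2.08-fold, adjusted p = 0.0417), but not without day 2 replicate 1 (adjusted p = 0.103) or 3 (0.121) of siBach1 or 1 (0.0867), 2 (0.115) or 3 (0.0675) of siControl, within 0.00126 to 0.174 over its alternatives. The differences of their silencing effects between days did not pass in the main fit (-0.89, adjusted p = 0.108, within 0.0398 to 0.33 over its alternatives, and 0.95, adjusted p = 0.212, within 0.0145 to 0.492). Both passed with the replicate block, and that of Kcnj12 also without siControl day 2 replicate 2.

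Kcnab1, a beta subunit of Shaker-type potassium channels, read -3.88, -4.11 and -4.01 in siControl and -2.19, -2.65 and -1.39 in siBach1 at day 2. The siBach1 arrays were above the siControl arrays of their day and above all 6 arrays of day 0. The effect was 1.93 (3.80-fold, adjusted p = 0.00777; 1.58 and 2.63 within the slides), or 0.88 with normexp, and 0.0797 in the methods' t-test, within 0.00113 to 0.0797. The difference from the day 0 effect was 1.80 (adjusted p = 0.0718).

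Among smaller effects at day 2, Kcnip3 gave -0.59 (adjusted p = 0.0258), but not without day 2 replicate 1 (adjusted p = 0.093) or 2 (0.077) of siBach1 or 1 (0.0646), 2 (0.0549) or 3 (0.0726) of siControl, within 0.00386 to 0.176. The muscle genes Scn4a (0.30, adjusted p = 0.563), Cacnb1 (0.01, adjusted p = 0.986), Cacng1 (-0.08, adjusted p = 0.733) and Kcnn3 (0.23, adjusted p = 0.777) did not pass, while the differentiated muscle markers had a median of -0.54.

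**Figure D3:**
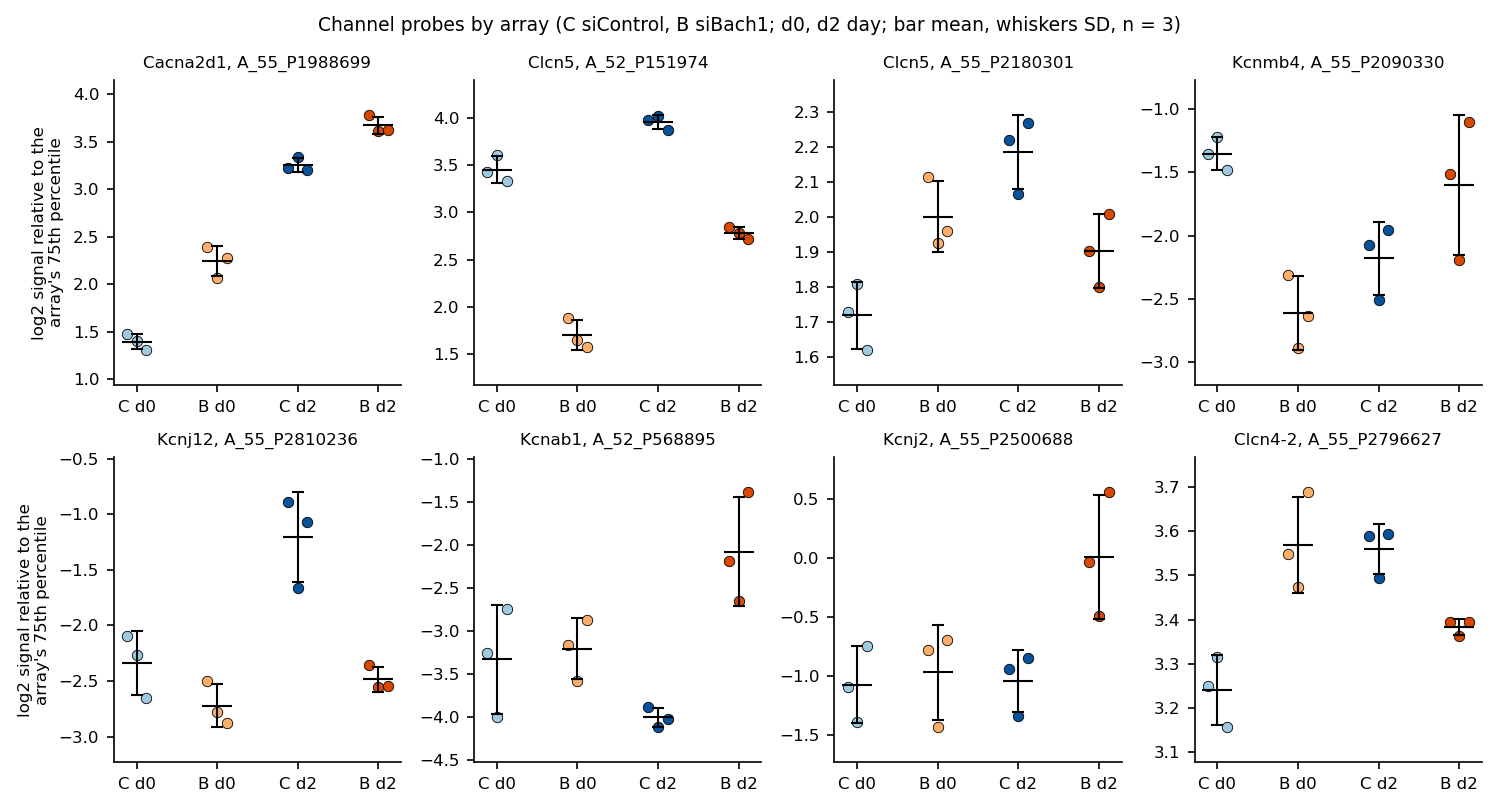
Log2 signal of 8 channel probes on each of the 12 arrays, as points by condition (C siControl, B siBach1; d0 and d2 for the day), with the mean as a bar and the SD as whiskers (n = 3) and an axis of its own in each panel. Clcn5 probe A_52_P151974 is lower with siBach1 at both days, and Kcnj12 stands above -2 only in siControl at day 2.

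**Figure D4:**
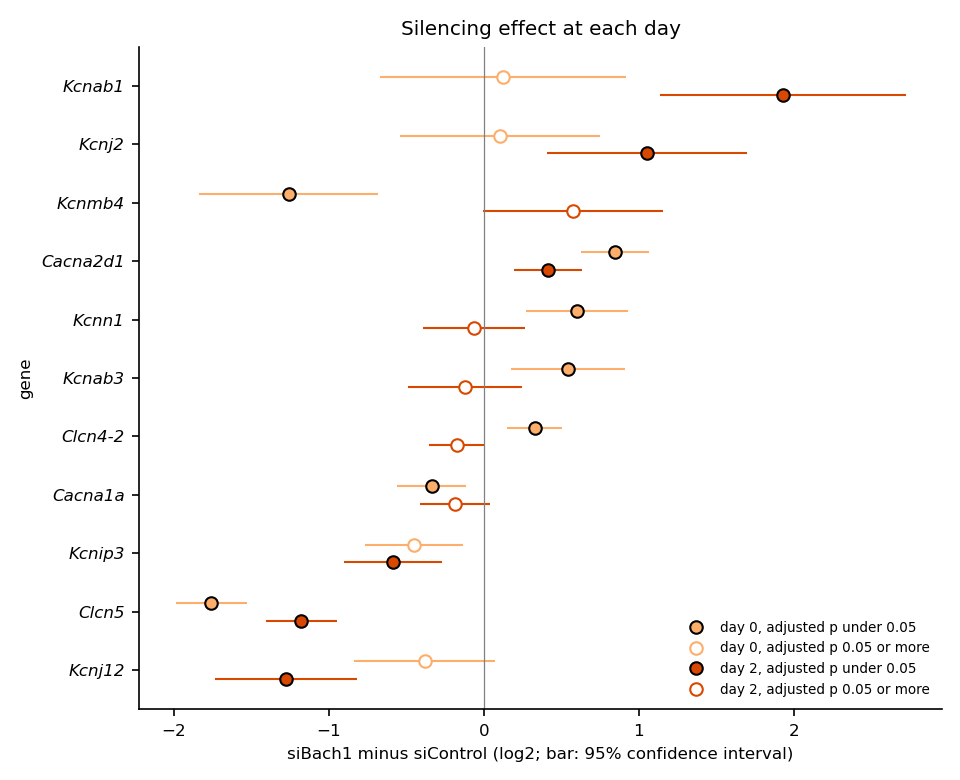
Silencing effect (siBach1 minus siControl, log2) at day 0 and day 2 for 11 genes that passed at either day, as points with 95% confidence intervals, filled where the adjusted p was under 0.05. Clcn5 lies left of 0 at both days, Cacna2d1 right of 0 at both days, and Kcnmb4 on opposite sides.

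Whether silencing acts differently before and during differentiation was asked by the difference of the silencing effects, day 2 minus day 0. Clcn4-2 had a more negative effect at day 2, and Kcnmb4 a more positive one. Of 104 member probes 1 was higher and 5 lower, against 2.39% and 2.19% of all probes tested. By 2-fold or more 1 was higher and 2 lower, against 0.984% and 0.458% of all. Over the 71 probes 1 was higher and 4 lower (1.41% and 5.63%, against 2.38% and 2.45% of all such probes), and by 2-fold 1 and 1 (1.41% each, against 0.725% and 0.395%). By gene 1 of 66 was higher and 3 were lower, and the median was -0.12, against -0.07 for all probes. With the replicate block the 2-fold count was 6 (2 higher and 4 lower) in place of 3.

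Kcnmb4 turned from -1.26 to 0.58, a difference of 1.83 (adjusted p = 0.0241; 1.75 and 2.01 within the slides). At day 2 it read -2.08, -2.50 and -1.96 in siControl and -1.51, -2.19 and -1.10 in siBach1, which overlap. The call ended without siBach1 day 0 replicate 2 (adjusted p = 0.056), siBach1 day 2 replicate 1 (0.0651), siControl day 0 replicate 1 (0.0578) or 2 (0.0626), or siControl day 2 replicate 1 (0.0518), within 0.0135 to 0.107. The second probe gave 1.03 (adjusted p = 0.212). For Clcn4-2, not every detected probe passed for the difference between days. Its brightest probe gave 0.33 at day 0 and -0.18 at day 2, where it did not pass, a difference of -0.50 (adjusted p = 0.0367). That call held only without siBach1 day 0 replicate 2 or siControl day 2 replicate 2; without any 1 of the other 10 arrays the adjusted p was 0.0595 to 0.0859, within 0.0172 to 0.218 over all alternatives.

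The second Clcn5 probe gave -0.56 (adjusted p = 0.0441), where the brightest gave 0.58 (adjusted p = 0.0526, within 0.0126 to 0.238). The call of the second probe held only without siControl day 2 replicate 2; without any 1 of the other 11 arrays the adjusted p was 0.0526 to 0.101, within 0.0247 to 0.22.

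**Figure D5:**
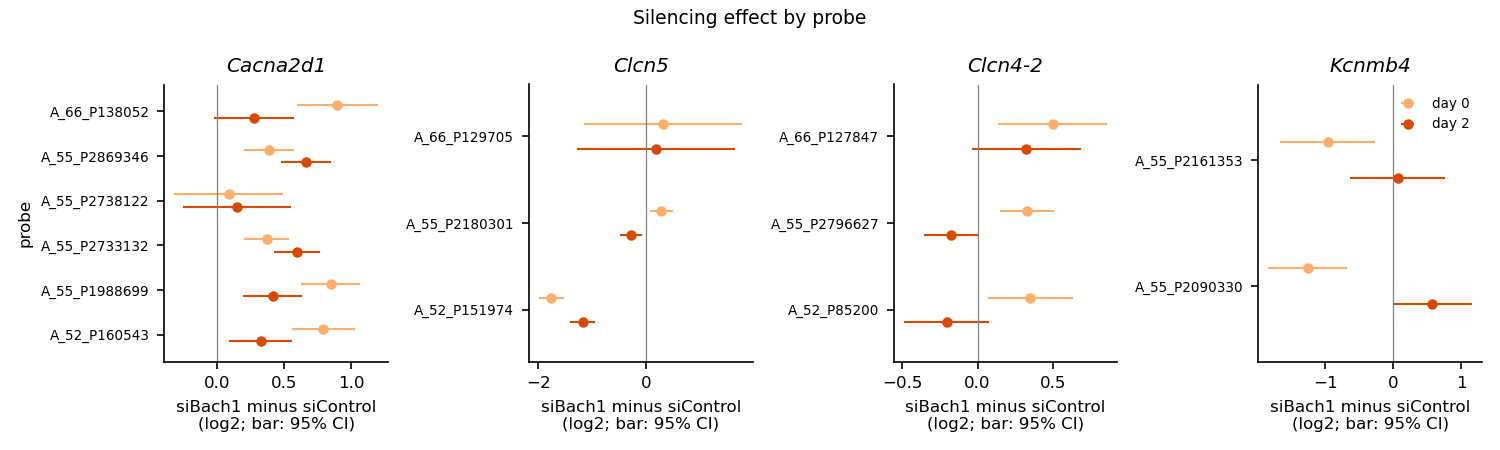
Silencing effect (siBach1 minus siControl, log2) at day 0 and day 2 for each detected probe of Cacna2d1, Clcn5, Clcn4-2 and Kcnmb4, as points with 95% confidence intervals and an axis of its own for each gene. For Clcn5, 1 of 3 probes lies far left of 0, whereas 5 of 6 Cacna2d1 probes lie right of 0 at day 0.

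Probes of a gene did not always pass together. Of 25 genes with several detected probes, some passed and some did not for 12 in the day comparison of siControl, 11 in that of siBach1, 7 for silencing at day 0, 6 at day 2 and 6 for the difference. No gene had probes that passed in opposite directions in limma (0 of 25 in each of the 5 comparisons), although the Clcn5 probes differ in sign at day 0.

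Among 60 regulators and partners of ion channels, 50 were tested. In siControl 26 rose and 12 fell from day 0 to day 2, against 24.6% and 28.8% of all probes (median 0.46, against 0.00), led by Cav3, the muscle caveolin (6.04), the kinase Camk2a (4.51), Rrad, a small GTPase that inhibits calcium channels (3.52), Stac3, an adaptor of the muscle calcium channel (2.66), and the sodium pump subunit Atp1b2 (2.51). In siBach1 22 rose and 12 fell, against 23.8% and 32.2% of all (median 0.12, against -0.07). Silencing at day 0 raised 5 and lowered 3 of the 50, against 8.77% and 8.33% of all (median 0.05, against 0.09), among them the calcium store sensor Stim2 (-1.50, adjusted p = 6.14e-05), Rrad (-0.69), the scaffold Dlg1 (0.59) and the ubiquitin ligase Nedd4l (0.56).

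At day 2 silencing raised 8 of the 50 and lowered 5, against 5.75% and 6.26% of all probes (median -0.04, against -0.01). The difference between days was higher for 2 and lower for 1, against 2.39% and 2.19% of all (median -0.09, against -0.07). Amigo1, an auxiliary subunit of potassium channels, read -1.22, -1.12 and -1.13 in siControl and 0.59, 0.78 and 0.29 in siBach1 at day 2. All siBach1 arrays were above all siControl arrays, while the day 0 conditions overlapped. The effect was 1.71 (3.28-fold, adjusted p = 0.000115; 1.86 and 1.43 within the slides), and its difference from day 0 was 1.72 (adjusted p = 0.00455). Stim2 was lower by a log2 change of -0.83 at day 2 (adjusted p = 0.00361) and Rrad by -0.88 (adjusted p = 0.00222, but 0.0587 in the methods' t-test, within 0.000319 to 0.0587).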

How the data were processed

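12 RNA samples were read on one-colour arrays with 62976 spots. The deposited array files hold the signal as intensity, background subtracted by the authors' scanner software, Feature Extraction (10.7.3.1 in the file headers, 9.1 in the submitters' notes); flags of 0 or 1 (other units) in the deposited files mark saturated, outlier and well-above-background spots. The deposited table holds the authors' log2 values after 75th percentile scaling. Intensities were put on a log2 scale, control and outlier spots (71 to 106 per array) left out, spots of a probe averaged, and the array's 75th percentile subtracted; the largest difference from the authors' values was 0.00477. Saturated spots numbered 0. Of 56605 probes, 29664 had 3 of 3 arrays flagged well above background in 1 condition or more and were tested.

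The 4 conditions were fitted in limma 3.58.1 (R 4.3.3) on all 12 arrays without a block, and p-values adjusted by Benjamini-Hochberg over all tested probes. Tables used Python 3.11.15, pandas 2.3.3 and numpy 2.4.6. Same-numbered arrays share a slide row; the correlations of all 18 pairs after removing condition means were 0.142 to 0.595, so a replicate block and a slide block were run as alternatives. Others were quantile normalization, normexp (offset 50), the authors' values, no filter, only the arrays compared, the methods' t-test with adjusted and unadjusted p, the adjusted p alone, 1 probe per gene, leaving out each array, and, chosen after seeing the data, only probes well above background on all 12 arrays. The steps were tested on simulated data.

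A gene's main probe has the highest mean log2 signal over the 12 arrays. Named are, by main probe with adjusted p under 0.05, the 12 largest rises and falls with the day in siControl, the 10 largest in each direction for silencing at each day, all with a difference between days, a list of genes known from muscle, and up to 6 regulators per comparison; Kcnc2, Kcnd1, Kcnh6, Cacna1b, Scn10a's second probe, Scn1a and Kcnq1ot1 were added after their values were seen. Members and lists were chosen with earlier results of these data known. A RefSeq accession was given for 93 detected probes; the RefSeq table held 90, of which 87 under the same symbol. Protein sequence features were not run. Some results for single genes are in the counts but not reported here.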

Additional observations from a re-analysis of the deposited data

Results flagged for a closer look

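The test of the difference of the silencing effects (day 2 minus day 0, log2) passed in the main fit for these channel probes, but each call depended on single arrays. For Kcnmb4 the difference was 1.83 (adjusted p = 0.0241). For the second probe of Clcn5 it was -0.56 (adjusted p = 0.0441), where the brightest probe gave 0.58 (adjusted p = 0.0526). For Clcn4-2 it was -0.50 (adjusted p = 0.0367). Leaving out 1 array ended the call in 11 of 12 cases for the second Clcn5 probe and in 10 of 12 for Clcn4-2. The Kcnmb4 call also ended without some single arrays, and its second probe did not pass.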

How the results depend on the processing

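The 2-fold counts of member probes were 31 and 33 for the day in siControl and siBach1, 2 and 7 for silencing at day 0 and day 2, and 3 for the difference. With normexp they were 16, 19, 1 and 3, and only for the difference unchanged at 3. On adjusted p alone they were 55, 13, 12 and 6 for the day in siControl, silencing at day 0 and day 2, and the difference. With 1 probe per gene the day counts were 18 and 21, and with only probes well above background on all 12 arrays (chosen after seeing the data) 16 and 20. The methods' t-test with adjusted p gave 3 for silencing at day 2. For the difference, no filter gave 1, and the replicate block and the slide block 6 each; the replicate block changed no other count by more than 1.5 times. Leaving out 1 array gave 30 to 33, 26 to 35, 2 to 4, 5 to 7 and 2 to 4. The t-test and the fit on only the arrays compared give no value for the difference. Bach1 ran from -1.91 to -1.50 at day 0 and from -1.997 to -1.88 at day 2. Clcn3 from day 0 to day 2 in siBach1 turned from -0.04 to 0.20 (adjusted p = 0.0365) with normexp; its adjusted p ran up to 0.936 over its alternatives. The cause was not tested, except that fewer probes are counted with 1 probe per gene or the stricter filter. Of 161 results for single genes, 111 kept their direction and side of the threshold under every alternative run, 33 lost the threshold in some and 1 reversed. The others did not pass in the main fit but passed in some alternatives.

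Dim signal limits the folds of Kcnk13 and Scn3b, which lie near background at day 0. With 3 arrays per condition, on 2 slides whose columns follow the conditions, position and condition cannot be told apart, and 1 siRNA does not separate loss of Bach1 from other effects of that sequence.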
